A study of Drosophila melanogaster with 12 samples.

Results

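The 6 actin genes of *Drosophila melanogaster*, *Act5C*, *Act42A*, *Act57B*, *Act79B*, *Act87E* and *Act88F*, were followed in the developing wing from the end of larval life to the deposition of adult cuticle. They were taken by symbol from the 15240 genes of the count tables, and all 6 were found there. The wings came from wandering L3 larvae and from animals at 6, 18, 24, 36 and 44 h after puparium formation (APF), with 2 replicates at each stage and 12 libraries in all. The larval libraries carry 0 h APF in their titles, whereas the design text of the series puts them at −10 h APF, and they are called L3 here. Every library was made from wings of the same labelled strain, w1118/y,w, hs-FLP; + ; +, a background with a heat-shock driven FLP recombinase, and 40 wings were dissected for each stage. Neither a treatment nor a mutant was compared, so each stage was set against the one before it. The study followed the wing through a pause in G2 at 6 h, the final cell cycle at 18 h, cell cycle exit at 24 h and differentiation at 36 and 44 h APF.

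Actin is the protein of the thin cytoskeletal filament, and its subunits join and leave the filament ends under the control of many binding proteins. Insects carry separate genes for the cytoplasmic actins, used in every cell for cell shape, division and motility, and for the muscle actins, which form the thin filaments of sarcomeres. In the fly, *Act5C* and *Act42A* are the cytoplasmic genes. *Act57B* and *Act87E* are best known from body wall muscle, *Act79B* from the tubular muscles of the thorax and legs, and *Act88F* from the indirect flight muscles. Wing cells each raise a hair on a core of bundled actin filaments during pupal life, and bristles at the margin are shaped by similar bundles.

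The genes are near copies of each other in their coding part, and this bears on every value given. In the BDGP6 annotation each has a coding length of 1128 bases, and 62.1% of the exon length of *Act5C* but only 29.3 to 43.3% of that of the other 5 genes lies outside it. Reads that aligned to several places were not counted on any gene, and they made up 38.0 to 69.5% of the records of a library. How many of those reads came from actin genes was not measured, because the reads themselves and the letters of the genes were not used here, so the counts of each gene are lower limits and a comparison between 2 actin genes is uncertain. A comparison of a gene with itself between stages has the same countable sequence on both sides only if its mix of transcripts is unchanged. BDGP6 gives 5 transcripts for *Act5C*, 3 for *Act87E* and 2 for *Act79B*, and their mix was not measured.

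Reads on genes numbered 1659208 to 6900002 per library, and 3 reads, taken as the floor of detection, were worth 0.363 to 1.53 CPM, the read count of a gene scaled by library size and TMM factor. Replicate libraries differed beyond counting error throughout, most of all those of 6 h APF, where 14.8% of genes differed at least 2-fold (3.00 to 7.96% elsewhere). All 8 markers of the wing epithelium, among them the selector genes *vg*, *nub*, *sd* and *ap*, had reads in every library, with a summed level of 1139 to 2660 CPM. At 44 h APF replicate 2 stood apart from replicate 1 in muscle genes, and the changes of *Act79B* and *Act88F* and of the sarcomere genes at 44 h are given with and without it. The replicates are labelled as separate samples, and the study's methods call them independent, but p-values measure only the spread between these libraries. In whole wings, fewer cells of a type and less RNA per cell cannot be told apart.

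All 6 genes passed the filter on low values (log2 CPM over 2 in any library), and *Act79B* and *Act88F* passed through libraries of 18 h APF or later. *Act79B* passed through 1 library at 6 h as well. Tests across genes were edgeR's, by quasi-likelihood, with p-values adjusted over 8469 genes by the Benjamini-Hochberg method, and adjusted p-values are of this kind except those given for another setting. Those given with RPKM come from limma. The deposited RPKM values are scaled by all records of a library, whether assigned to a gene or not. Settings over every line of the count files use that same library scale. In the test of any difference, all 6 differed among the stages, but so did 83.5% of the genes tested. A gene is called past the test between 2 stages when its adjusted p-value is under 0.05 and its change at least 2-fold. By this rule 2 actin genes rose and none fell at 6 h APF against L3, where 18.1% of tested genes rose and 14.7% fell. At 18 h against 6 h, 3 rose and 1 fell (14.3% and 17.8% of all tested genes). At 24 h against 18 h none rose and 2 fell (3.65% and 5.16%). At 36 h against 24 h, 4 rose and none fell (15.3% and 10.1%), and at 44 h against 36 h, 3 rose and none fell (10.5% and 9.38%). Replicates of the later stage lay wholly above or below those of the earlier one for 5 of the 6 genes at 6 h, 4 at 18 h, all 6 at 24 and 36 h and 4 at 44 h APF. This held for 71.8, 68.9, 55.9, 68.2 and 69.9% of all tested genes in the same intervals. With only 6 genes, no difference from these shares is read from the counts. At 24 h the separation of *Act79B* rested on 6 and 2 reads against 19 and 5 (adjusted p = 0.64). At 36 h those of *Act42A* and *Act57B* had adjusted p-values of 0.507 and 0.343. The median log2 fold change of the 6 genes against the stage before was 0.68 by 6 h, 0.45 by 18 h, −1.31 by 24 h, 2.32 by 36 h and 1.85 by 44 h APF. Over all genes tested it lay between −0.04 and 0.08. Without replicate 2 of 44 h, the median of the 6 actin genes at 44 h was 1.03, beside 0.06 over all genes.

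**Figure D1:**
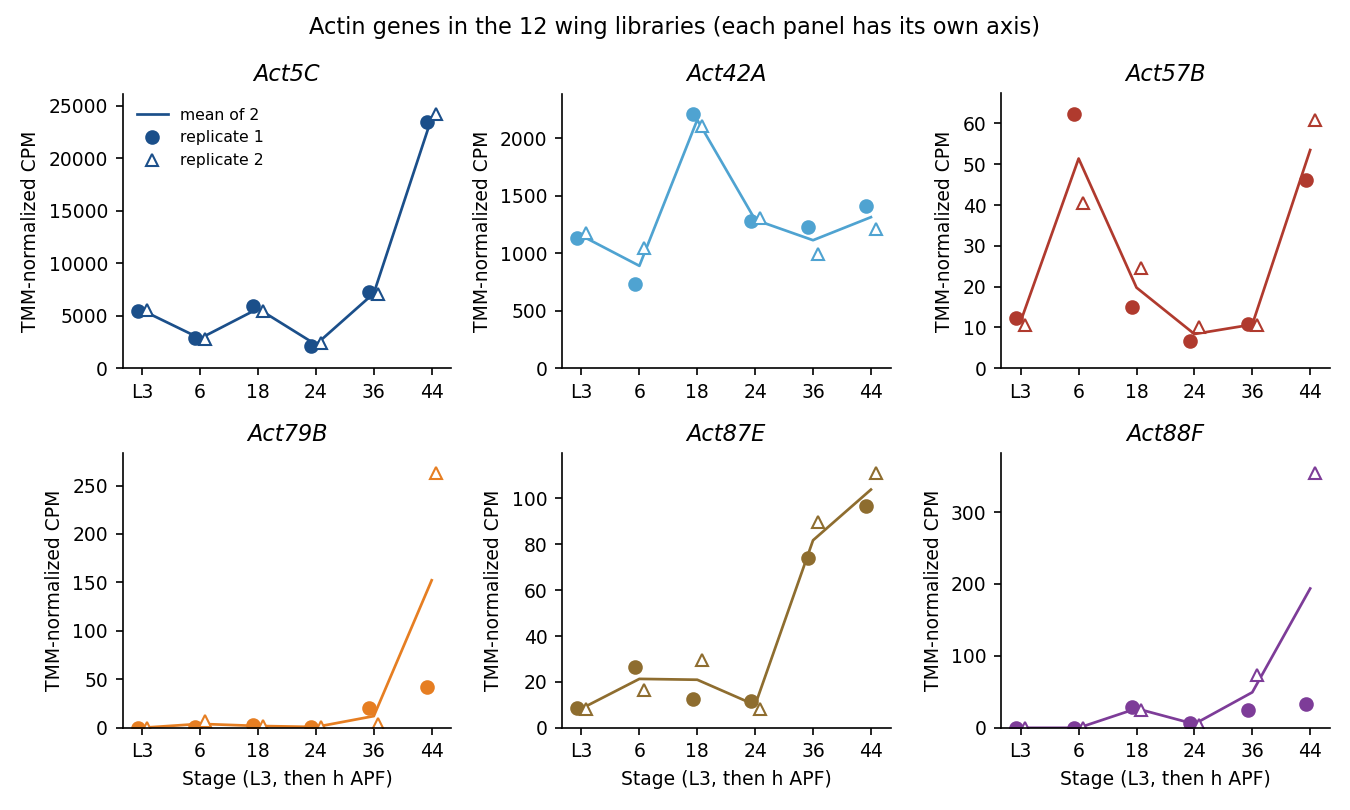
TMM-normalized CPM of each actin gene (vertical axis, a separate linear scale from 0 in each panel) at L3 and at 6, 18, 24, 36 and 44 h APF. Filled circles are replicate 1, open triangles replicate 2 and lines the mean of 2. Both *Act5C* libraries at 44 h lie far above the others, at 23466 and 24237 CPM, whereas the 44 h replicates of *Act79B* and *Act88F* lie far apart.

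*Act5C* (FBgn0000042, arm X, plus strand, with no overlapping gene in BDGP6) was the most read actin gene in every library and the one with the largest late rise in reads. Its replicates had 5484 and 5556 CPM at L3, 2928 and 2753 CPM at 6 h, 5912 and 5453 CPM at 18 h and 2128 and 2381 CPM at 24 h APF. They had 7222 and 7065 CPM at 36 h and 23466 and 24237 CPM at 44 h APF. The level was thus high at both proliferating stages, low at 6 and 24 h, and highest after cell cycle exit, and no stage overlapped the one before it. By 44 h APF this gene alone took 1.64 and 1.74% of the reads on genes.

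*Act5C* averaged 2840 ± 123 CPM at 6 h APF and 5520 ± 50.8 CPM at L3 (SD, n = 2 each), a log2 fold change of −0.96 ± 0.22 (SE, adjusted p = 0.00392). That change fell just short of 2-fold. It averaged 5683 ± 324 CPM at 18 h against the 6 h level, a log2 fold change of 1.00 ± 0.22 (SE, adjusted p = 0.00312). The rise at 18 h lay at the 2-fold limit, and it was 0.98 with DESeq2's size factors, 0.96 without replicate 2 of 6 h and 0.94 without replicate 1 of 18 h. In the 4 libraries of that comparison alone it was not past the test (adjusted p = 0.0718). The fall at 6 h reached the limit without replicate 1 of that stage. It was −1.54 with library size alone (adjusted p = 9.28e-05), −1.41 over every line of the count files (0.000999) and −1.39 with RPKM (0.00476), where the median of all genes moved by −0.53, −0.38 and −0.32. At 24 h APF the gene fell to 2254 ± 178 CPM, a log2 fold change of −1.33 ± 0.22 (SE, adjusted p = 0.00274). It then rose to 7144 ± 111 CPM at 36 h, with a log2 fold change of 1.66 ± 0.22 (SE, adjusted p = 0.000159). With library sizes taken over every line the change at 36 h was 0.85, and with RPKM it was 0.83 and not past the test (adjusted p = 0.0567), where the median of all genes moved by −0.88 and −0.69. At 44 h it rose again to 23852 ± 545 CPM, against 7144 ± 111 CPM at 36 h (SD, n = 2 each), with a log2 fold change of 1.74 ± 0.22 (SE, adjusted p = 0.000128). Between its lowest stage, 24 h, and its highest, 44 h, the mean level differed 10.6-fold.

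*Act42A* (FBgn0000043, arm 2R, minus strand, no overlapping gene), the other cytoplasmic gene, moved less and had its maximum during the final cell cycle. Its replicates had 1133 and 1172 CPM at L3, 733 and 1047 CPM at 6 h, 2211 and 2107 CPM at 18 h, 1277 and 1304 CPM at 24 h, 1230 and 996 CPM at 36 h and 1412 and 1214 CPM at 44 h APF. The 18 h libraries stood above all others, and the 36 and 44 h libraries overlapped. The mean level differed 2.43-fold between 18 h, its highest stage, and 6 h, its lowest. The rise at 18 h APF was the one change past the test with TMM scaling, with 2159 ± 73.3 CPM at 18 h and 890 ± 222 CPM at 6 h (SD, n = 2 each), a log2 fold change of 1.28 ± 0.24 (SE, adjusted p = 0.00108). At 24 h against 18 h the log2 fold change was −0.74 (adjusted p = 0.062), at 36 h against 24 h −0.21 (adjusted p = 0.507) and at 44 h against 36 h 0.24 (adjusted p = 0.477). Falls were called at 36 h with library sizes over every line of the count files (−1.02, adjusted p = 0.0234) and with RPKM (−1.06, adjusted p = 0.0242), and at 24 h over every line (−1.14, adjusted p = 0.0489). On those scales the median of all genes moved by −0.88 and −0.69 at 36 h and by −0.36 at 24 h. RPKM has the library scale of every line, so the calls at 36 h are not independent of each other.

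The mix of the cytoplasmic genes was also read within each library, where it needs no scaling between libraries. There were 4.84 and 4.74 *Act5C* reads per *Act42A* read in the L3 replicates, 3.99 and 2.63 in those of 6 h APF, and 2.67 and 2.59 in those of 18 h. The 24 h replicates had ratios of 1.67 and 1.83, the 36 h replicates 5.87 and 7.09, and the 44 h replicates 16.6 and 19.96. The ratio was lowest at 24 h and highest at 44 h, where both replicates lay above every other library. Its mean log2 value was 0.80 ± 0.09 in the 24 h libraries, 2.69 ± 0.19 in the 36 h libraries and 4.19 ± 0.19 in the 44 h libraries (SD, n = 2 each). An exact permutation test of the F statistic over the 10395 ways to place 12 libraries in 6 pairs gave p = 0.0001924, where the smallest p the pairings allow is 9.6e-05. A single stage against another, with 2 libraries each, cannot go below p = 0.333 in such an exact test. As a share of the reads on both genes, *Act42A* held 37.5% (95% Wilson interval 36.9 to 38.1) and 35.4% (34.3 to 36.5) in the 24 h libraries. At 44 h its share was 5.68% (5.54 to 5.82) and 4.77% (4.65 to 4.89). These intervals cover counting error only, since the reads carry no molecular identifiers.

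**Figure D2:**
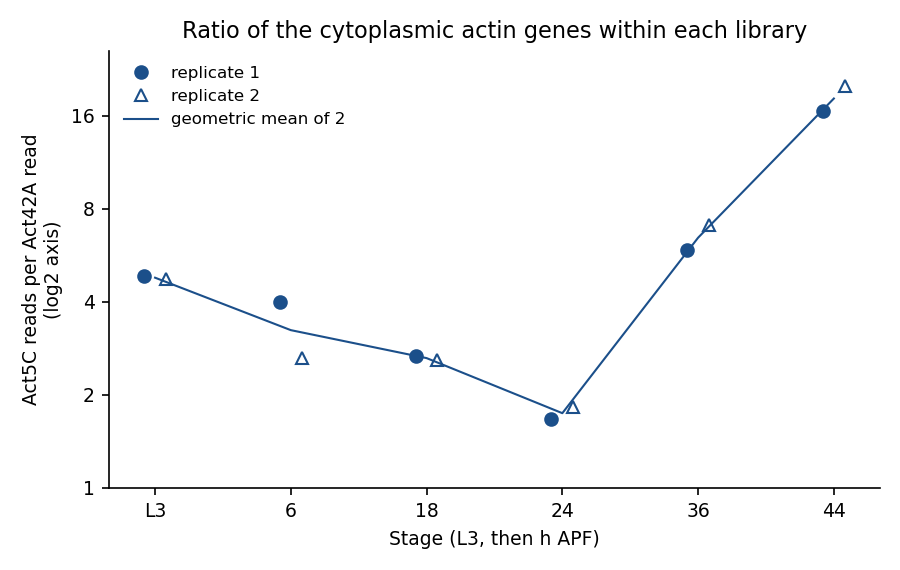
Reads on *Act5C* per read on *Act42A* within each library (vertical log2 axis) at L3 and at 6 to 44 h APF. Circles are replicate 1, triangles replicate 2 and the line their geometric mean, which is 1.74 at 24 h and 18.2 at 44 h APF.

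The 4 muscle genes together held a small part of the actin reads at every stage. Their share was 0.299 ± 0.0264% at L3, 2.02 ± 0.535% by 6 h, 0.884 ± 0.241% by 18 h, 0.689 ± 0.0986% by 24 h, 1.84 ± 0.460% by 36 h and 1.94 ± 1.51% by 44 h APF (SD, n = 2 each). At 44 h the replicates were 3.00% in replicate 2 (95% Wilson interval 2.91 to 3.10) and 0.871% in replicate 1 (0.816 to 0.929). All actin genes together took 0.865 ± 0.0814% of the reads on genes in L3 wings, 0.329 ± 0.0146% in 6 h wings, 0.963 ± 0.0804% in 18 h wings, 0.417 ± 0.0296% in 24 h wings, 0.751 ± 0.0216% in 36 h wings and 1.82 ± 0.0875% in 44 h wings. The total was lowest at 6 h and highest at 44 h, and the L3 and 18 h replicates overlapped.

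Levels of different genes were compared per kb of annotated exon, on the linear CPM scale. The full exon length was used, although reads aligned to several places were not counted. Of that length, 62.1% of *Act5C* but 30.6% of *Act42A* lies outside the coding part. An order per countable length was not computed and could differ, and overlap of replicates does not bear on this. *Act5C* was first and *Act42A* second at L3, with 1854 ± 17.1 and 709 ± 16.8 CPM per kb, and in the same order at 6, 18, 36 and 44 h APF without overlap of replicates. At 24 h APF the genes could not be ordered, with 793 ± 11.8 CPM per kb for *Act42A* and 757 ± 59.9 CPM per kb for *Act5C* (SD, n = 2 each), since their replicates overlapped. By 44 h APF *Act5C* stood at 8009 ± 183 CPM per kb and *Act42A* at 808 ± 86.2 CPM per kb. The first muscle gene in the order was *Act57B* at L3 and 6 h (6.69 ± 0.675 and 29.8 ± 8.98 CPM per kb) and *Act88F* at 18 h (16.8 ± 1.46 CPM per kb). *Act87E* held that place at 24 and 36 h (41.1 ± 5.62 CPM per kb at 36 h), but there its replicates overlapped those of the next gene. At 44 h *Act88F*, *Act79B* and *Act87E* followed with overlapping replicates, and *Act57B* came last by its mean of 31.0 ± 6.10 CPM per kb. Its replicates lay below those of *Act87E* but overlapped those of *Act88F* and *Act79B*. The exon lengths used were 2978, 1626, 1724, 1619, 1989 and 1595 bases for *Act5C*, *Act42A*, *Act57B*, *Act79B*, *Act87E* and *Act88F*. The deposited RPKM values were not used for this, because the lengths they imply, such as 8794 bases for *Act88F* and 1091 bases for *Act42A*, do not belong to these genes. The 1091 bases are fewer than its coding length.

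**Figure D3:**
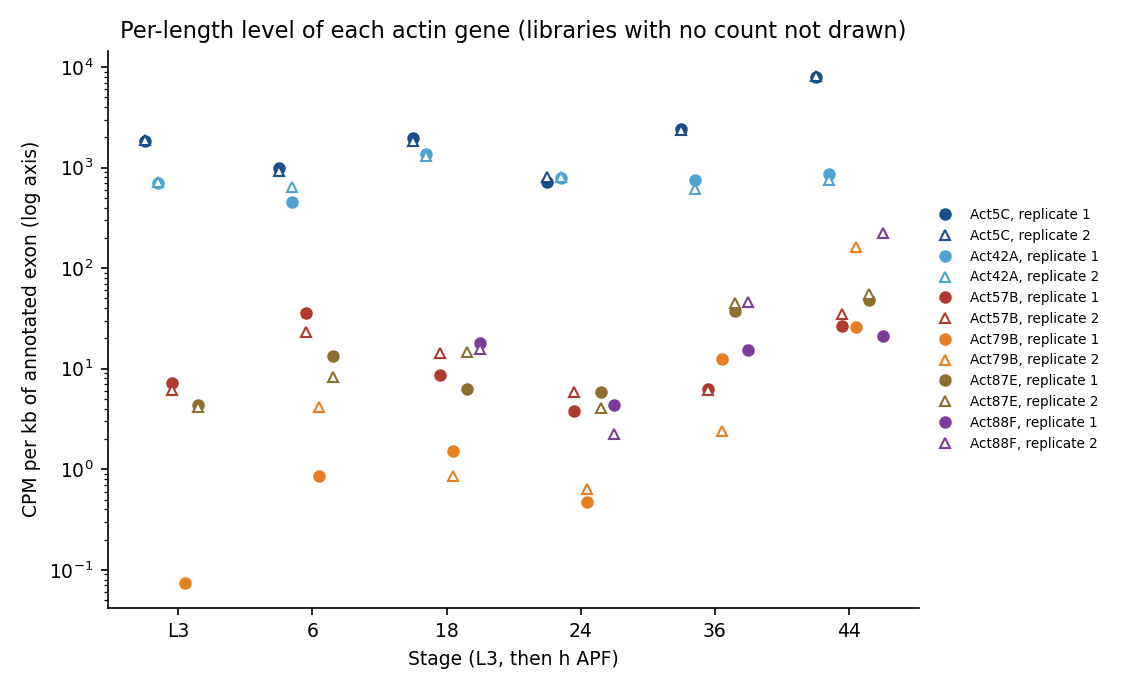
CPM per kb of annotated exon (vertical log axis) for each actin gene and library at L3 and at 6 to 44 h APF, with filled circles for replicate 1, open triangles for replicate 2 and 1 colour a gene. The cytoplasmic genes (blues) lie above the muscle genes at every stage, and they meet at 24 h APF.

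*Act57B* (FBgn0000044, arm 2R, plus strand) had peaks at 6 and at 44 h APF. The snoRNA gene *snoRNA:660* lies inside it on the same strand. The replicates had 12.4 and 10.7 CPM at L3, 62.3 and 40.4 CPM at 6 h, 14.9 and 24.6 CPM at 18 h, 6.57 and 10.2 CPM at 24 h, 10.9 and 10.5 CPM at 36 h and 46.0 and 60.9 CPM at 44 h APF. Both 6 h and both 44 h libraries stood above all others, and the 6 and 44 h libraries overlapped each other. The level was 51.4 ± 15.5 CPM at 6 h APF and 11.5 ± 1.16 CPM at L3 (SD, n = 2 each), a log2 fold change of 2.15 ± 0.30 (SE, adjusted p = 0.000158). It fell at 18 h by 1.42 on the log2 scale (adjusted p = 0.00212) and at 24 h by 1.31 (adjusted p = 0.0254). The fall at 18 h was 0.92 with library size alone as the scale, where the median of all genes moved up by 0.50, and its call was also lost with library sizes over every line (adjusted p = 0.142) and with RPKM (adjusted p = 0.196). The fall at 24 h lost its call without replicate 2 of 18 h (adjusted p = 0.172) and without replicate 1 of 24 h (adjusted p = 0.294). At 44 h APF the level was 53.5 ± 10.5 CPM, against 10.7 ± 0.239 CPM at 36 h, a log2 fold change of 2.32 ± 0.32 (SE, adjusted p = 0.000192). This rise kept its call without replicate 2 of 44 h.

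*Act87E* (FBgn0000046, arm 3R, plus strand) was raised from 36 h APF on. It overlaps the non-coding RNA gene *lncRNA:CR45591* on the opposite strand, and the strand setting of the counting is not given in the sources used here. The replicates had 8.60 and 8.19 CPM at L3, 26.4 and 16.3 CPM at 6 h, 12.5 and 29.4 CPM at 18 h, 11.7 and 8.16 CPM at 24 h, 73.8 and 89.7 CPM at 36 h and 96.8 and 110.9 CPM at 44 h APF. All 4 libraries of 36 and 44 h lay above the 8 earlier ones. The level was 81.8 ± 11.2 CPM at 36 h and 9.94 ± 2.52 CPM at 24 h APF (SD, n = 2 each), a log2 fold change of 2.97 ± 0.38 (SE, adjusted p = 0.000105). At 44 h against 36 h the log2 fold change was 0.35 (adjusted p = 0.456). At 24 h against 18 h it was −0.96 (adjusted p = 0.128), and −1.49 without replicate 1 of 18 h (adjusted p = 0.0254). At 6 h against L3 it was 1.35 ± 0.38 (SE, adjusted p = 0.0127), and that call was lost without replicate 1 of 6 h (adjusted p = 0.109), without replicate 1 of L3 (0.0757) and without replicate 2 of L3 (0.0537). It was also lost with library size alone (0.0833), over every line (0.0929) and with RPKM (0.163).

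*Act79B* (FBgn0000045, arm 3L, plus strand, no overlapping gene) had at most 20 reads in any library until 24 h APF. The L3 replicates had 1 and 0 reads, the 6 h replicates 6 and 20, the 18 h replicates 19 and 5 and the 24 h replicates 6 and 2. There were 69 and 14 reads in the 36 h libraries and 177 and 1297 in those of 44 h APF, which were 20.3 and 3.89 CPM and 42.0 and 262.4 CPM. Replicate 2 of 6 h, with 6.80 CPM, stood above replicate 2 of 36 h. The level was 12.1 ± 11.6 CPM at 36 h and 0.896 ± 0.175 CPM at 24 h APF (SD, n = 2 each), a log2 fold change of 3.81 (adjusted p = 0.039). The call was lost without replicate 1 of 36 h, with a log2 fold change of 2.19 (adjusted p = 0.341), and with RPKM (1.22, adjusted p = 0.16). It was also lost, with changes of 3.52 to 3.94, without replicate 1 or 2 of 24 h (adjusted p = 0.251 and 0.0928) and without replicate 1 or 2 of 18 h (0.0519 and 0.0518). At 44 h APF it was 152 ± 156 CPM, against 12.1 ± 11.6 CPM at 36 h, a log2 fold change of 3.67 ± 0.82 (SE, adjusted p = 0.00599). This call was lost without replicate 2 of 44 h, where the log2 fold change was 1.80 (adjusted p = 0.13), and without replicate 2 of 36 h (adjusted p = 0.0627). At 6 h against L3 the adjusted p of *Act79B* was 0.0782. It was 0.0063 with DESeq2, 0.00558 over every line and 0.0434 in the 4 libraries of that comparison alone. With DESeq2's size factors it was 0.0699, with library size alone 0.0979, with a filter of 10 counts 0.0712, with a replicate term 0.0884 and with RPKM 0.318. Most of the 6 h reads lay in replicate 2, without which the log2 fold change was 3.63, beside 5.04 with it.

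*Act88F* (FBgn0000047, arm 3R, plus strand, no overlapping gene) had no read in any L3 or 6 h library. The 18 h replicates had 218 and 90 reads (28.5 and 25.2 CPM) and the 24 h replicates 54 and 7 reads (6.96 and 3.57 CPM). The 36 h replicates had 84 and 267 reads (24.7 and 74.1 CPM) and the 44 h replicates 142 and 1748 reads (33.7 and 353.7 CPM). The gene was at least 26.3-fold higher at 18 h than at 6 h APF, from the mean of the 18 h replicates over the larger 6 h floor of 1.02 CPM, and at least 24.7-fold higher by the lower replicate. This change was past the test (adjusted p = 0.00806). At 24 h APF the level was 5.26 ± 2.39 CPM, against 26.8 ± 2.32 CPM at 18 h (SD, n = 2 each), and the log2 fold change of −2.19 ± 1.00 (SE) was not past the test (adjusted p = 0.19). It was past it in the 4 libraries of that comparison alone (adjusted p = 0.000654) and without either 44 h replicate (0.0321 and 0.0318). At 36 h APF it was 49.4 ± 34.9 CPM, against 5.26 ± 2.39 CPM at 24 h, a log2 fold change of 3.07 (adjusted p = 0.0384). That call was lost without replicate 2 of 36 h, with a log2 fold change of 2.07 (adjusted p = 0.237), and with RPKM (adjusted p = 0.154). It was also lost with changes of 3.78 and 2.85 without replicate 1 or 2 of 24 h (adjusted p = 0.137 and 0.141). Without replicate 1 or 2 of 18 h the changes were 3.07 and 3.08 (adjusted p = 0.0582 and 0.0577). At 44 h against 36 h the log2 fold change of 1.97 was not past the test (adjusted p = 0.109), and without replicate 2 of 44 h it turned to −0.55 (adjusted p = 0.544). Without replicate 1 of 44 h it was 2.84 and past the test (adjusted p = 0.00546).

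**Figure D4:**
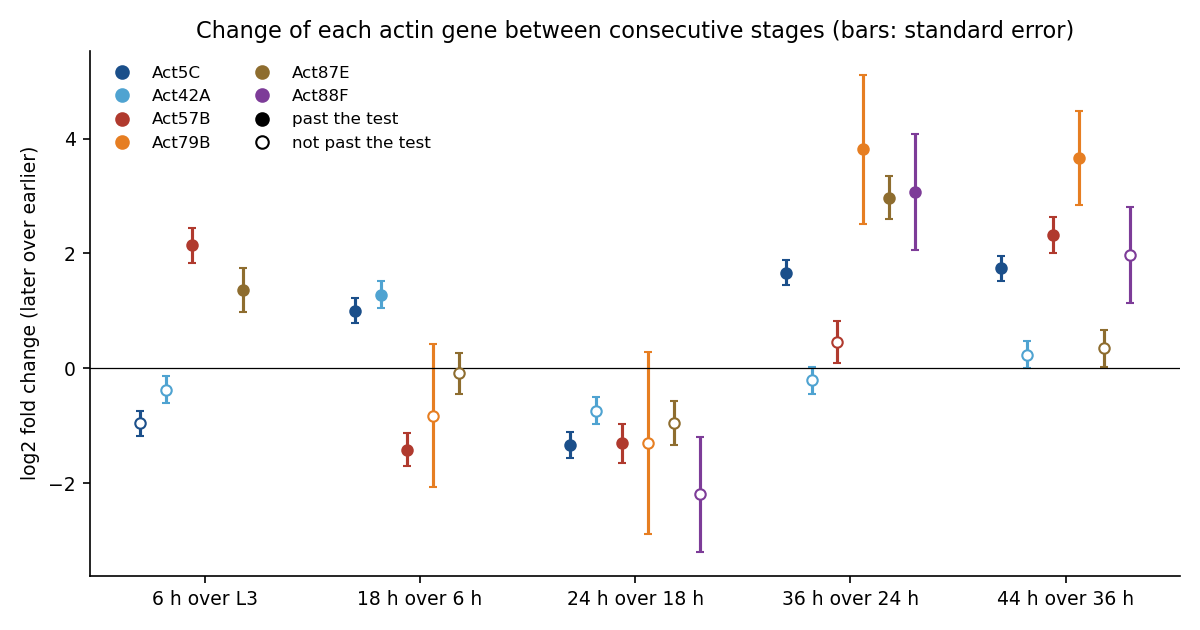
log2 fold change of each actin gene, later over earlier stage, with its standard error from edgeR's fit over 12 libraries, for the 5 pairs of consecutive stages. Filled points are past the test and open points are not, and *Act88F* at 6 and 18 h and *Act79B* at 6 h are left out because the earlier stage had at most 1 read. *Act5C* goes down at 6 and 24 h and up at 18, 36 and 44 h APF.

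The differences between the 44 h replicates ran with those of sarcomere genes. *Act88F* was 10.5-fold and *Act79B* 6.25-fold higher in replicate 2 than in replicate 1. The other actin genes differed between 0.860- and 1.32-fold. Of 19 genes of a list of sarcomere genes with at least 10 reads, 14 were at least 2-fold higher in replicate 2 and none was 2-fold lower. Of all tested genes, 4.24% differed at least 2-fold between these replicates, in either direction. *Mhc*, the muscle myosin heavy chain, had 321 CPM in replicate 2 and 73.6 CPM in replicate 1, and *fln*, the flight muscle protein flightin, differed 5.88-fold. None of the 8 wing epithelium markers differed 2-fold. The summed level of the 21 sarcomere genes was 149 to 166 CPM at L3, 323 to 388 CPM at 6 h, 281 to 359 CPM at 18 h, 415 to 482 CPM at 24 h, 1732 to 1746 CPM at 36 h and 1647 to 3788 CPM at 44 h APF. Between 1 and 9 of the 21 had no read in each library from L3 to 24 h, and at most 1 from 36 h on. *sls*, a titin-like gene, held 1469 and 1383 CPM of the sums at 36 h and 392 and 334 CPM of those at 24 h. Without it the 36 h sums were 262 and 363 CPM and the 44 h sums 885 and 2973 CPM, beside 81.1 to 266 CPM up to 24 h. The part of these genes in the levels of the muscle actin genes at 36 and 44 h was not tested.

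At 18 h APF, where *Act88F* had 28.5 and 25.2 CPM, *Mhc* had 0.784 and 0.280 CPM and *Tm2*, a muscle tropomyosin, 0.392 and 0.280 CPM. Both markers were thus near the floor where *Act88F* was first read. *Mlc2*, a myosin light chain of muscle, was past the test at that stage, with 76.5 ± 16.4 CPM at 18 h and 8.47 ± 3.88 CPM at 6 h (SD, n = 2 each, adjusted p = 0.00117). It was the one sarcomere gene of 19 tested that rose, and 2 fell, where 14.3% of all tested genes rose and 17.8% fell. In the next intervals 1 rose by 24 h, 12 by 36 h and 14 by 44 h APF, and none fell, where 3.65%, 15.3% and 10.5% of all tested genes rose. Without replicate 2 of 44 h, the median log2 fold change of the 19 at 44 h was 1.37, beside 0.06 over all genes. With both replicates it was 2.63, beside 0.08 over all genes. Of 10 myoblast genes, none rose and 6 fell at 18 h (14.3% and 17.8% of all tested genes), and 1 rose and 2 fell at 24 h APF (3.65% and 5.16%). By 36 h, 1 rose and 0 fell (15.3% and 10.1%), and by 44 h APF, 1 rose and 2 fell (10.5% and 9.38%).

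**Figure D5:**
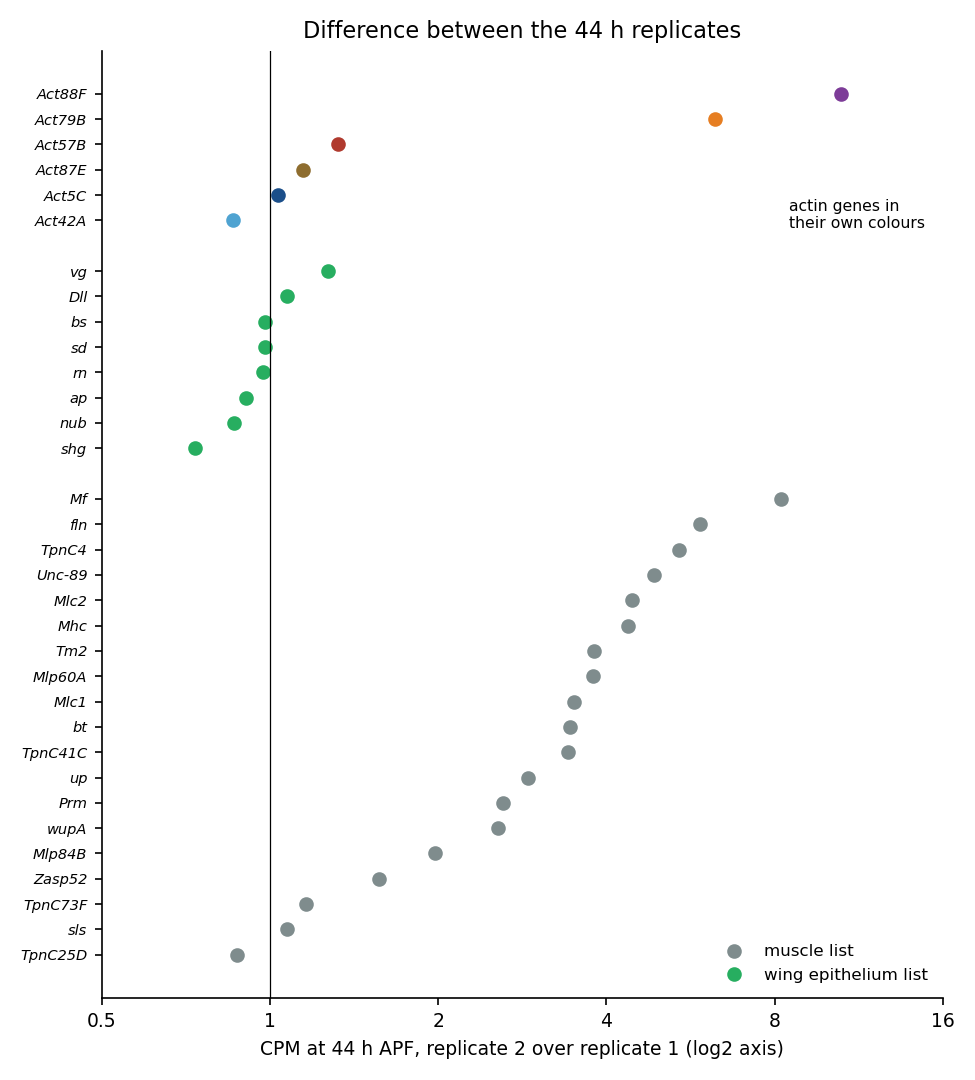
CPM of replicate 2 over that of replicate 1 at 44 h APF (horizontal log2 axis) for the actin genes, the wing epithelium markers and the sarcomere genes with more than 3 reads in both libraries. *Act88F* and *Act79B* lie to the right at 10.5 and 6.25, among or beyond the sarcomere genes, and the other actin genes lie with the wing epithelium markers near 1.

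Markers of other cells that a dissected wing could hold were also read beside the actin genes. The summed level was 185 to 586 CPM over 10 myoblast genes, 39.7 to 115 CPM over 7 hemocyte genes and 39.7 to 393 CPM over 6 neuronal genes. Over 4 tracheal genes it was 128 to 10789 CPM. The high tracheal sums came from *Gasp*, a chitin-binding protein gene that is not read from trachea alone, which rose at 6, 36 and 44 h APF. The 6 h replicates were far apart, with 46664 and 5575 *Gasp* reads and tracheal sums of 10789 and 1947 CPM. The highest myoblast sum, 586 CPM, was that of 6 h replicate 1, which also had the higher *Act57B* and *Act87E* levels of that stage. Among the 10 myoblast genes, the largest differences between the 6 h replicates were in *blow* (205 CPM in replicate 1 and 40.4 CPM in replicate 2) and *Mef2* (99.7 and 37.4 CPM). Ratios of replicate 2 to replicate 1 were 0.507 for *sns*, 0.591 for *zfh1* and 0.732 for *stumps*, but 0.995 for *twi* and 0.908 for *Him*. Over the 10 myoblast genes the median log2 ratio was −0.59, with 2 at least 2-fold lower in replicate 2 and 0 higher. Of all tested genes, 14.8% differed at least 2-fold between the 6 h replicates, in either direction. With so few genes, no difference from that share is read from the count. The sarcomere sum was the lower one in replicate 1 of 6 h, 323 against 388 CPM, but that gap lay in *sls*. Without *sls* the sums were 263 CPM in replicate 1 and 266 CPM in replicate 2. Of the 21 genes, 13 in replicate 1 and 10 in replicate 2 were at or under the floor, so these sums say little about sarcomere content. Over the 9 sarcomere genes with at least 10 reads the median log2 ratio was 0.91. Of them, 3 were at least 2-fold higher in replicate 2 and 0 lower, beside the same 14.8% of all tested genes. The part of those cells in the 6 h levels was not tested.

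Partners of actin were taken from lists for filament assembly, for bundling and myosin, and for actin-related proteins. Of 26 genes for filament assembly and disassembly, 5 rose and none fell at 6 h, none rose and 6 fell at 18 h, 1 rose at 24 h, 8 rose and 1 fell at 36 h, and 4 rose and 1 fell at 44 h APF. The shares of all tested genes that rose and fell were 18.1 and 14.7% by 6 h, 14.3 and 17.8% by 18 h, 3.65 and 5.16% by 24 h, 15.3 and 10.1% by 36 h and 10.5 and 9.38% by 44 h APF. The rises at 6 h were thus near that share. Profilin (*chic*) and cofilin (*tsr*), which feed and sever filaments, stayed between 1297 and 2568 CPM and between 759 and 1524 CPM over the 12 libraries. They were not past the test in any interval. *capt*, a cyclase-associated protein that recycles actin subunits, rose at 36 h with a log2 fold change of 2.00 ± 0.24 (SE, adjusted p = 7.04e-05), the interval of the first late rise of *Act5C*. *cib*, a small subunit-binding protein, rose at 36 h by a log2 fold change of 1.11 (adjusted p = 0.00645) and fell at 44 h by 1.70 (adjusted p = 0.000542). *qua*, a villin-like protein, had 799 ± 64.0 CPM at 44 h against 151 ± 24.6 CPM at 36 h (SD, n = 2 each).

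Of 19 genes for bundling, crosslinking and myosin, 3 rose and 2 fell at 6 h, 2 rose and 7 fell at 18 h, 1 rose at 24 h, 7 rose and none fell at 36 h, and 6 rose and 2 fell at 44 h APF. At 6 h both counts were near the shares of all tested genes (18.1% rose and 14.7% fell). For 18, 24, 36 and 44 h, in that order, rises made up 14.3, 3.65, 15.3 and 10.5% of all tested genes. Falls made up 17.8, 5.16, 10.1 and 9.38% in the same order. The counts of this list were not tested against those shares. The bundlers of hairs and bristles were among those that rose in both late intervals, as *Act5C* did. *f* (forked) had 671 and 523 CPM at 36 h against 22.3 and 21.4 CPM at 24 h, and 1868 and 1721 CPM at 44 h APF. *sn*, the fly fascin, had 975 and 965 CPM at 36 h against 264 and 212 CPM at 24 h, and 2914 and 2674 CPM at 44 h. Their log2 fold changes at 44 h against 36 h were 1.59 (adjusted p = 0.00122) and 1.53 (adjusted p = 0.00137), beside 1.74 for *Act5C*. *f* was also raised at 6 h APF, with 71.3 and 100.3 CPM against 2.54 and 4.41 CPM at L3, where *Act5C* was lower. The myosin II genes *zip* and *sqh*, which pull on cortical actin, were not past the test in any interval.

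Among 9 actin-related proteins, 8 were tested. The Arp2/3 subunits *Arp2* and *Arp3*, which start branched filaments, lay between 109 and 236 CPM and between 69.7 and 117 CPM and were not past the test in any interval. *Bap55*, a nuclear actin-related protein of chromatin remodelling complexes, fell at 6 h (28.8 ± 1.36 CPM, against 104 ± 4.45 CPM at L3), rose at 18 h (128 ± 17.2 CPM) and fell again at 24 and 36 h APF (57.7 ± 2.33 and 23.7 ± 0.237 CPM). *bs*, the fly serum response factor, a regulator of actin genes known from mammals, rose at 18 and 24 h APF, with 135 and 86.8 CPM and with 326 and 198 CPM in the replicates. The *bs* level at 44 h was 111 and 109 CPM, when *Act5C* was highest.

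The actin genes did not share 1 course over the 12 libraries. Pearson's correlation of log2 CPM was 0.19 between *Act5C* and *Act42A*, 0.83 between *Act79B* and *Act87E*, and 0.07 between *Act57B* and *Act88F*. Libraries of 1 stage share their age and most of their RNA makeup, so these values are descriptions. The genes whose log2 CPM followed *Act5C* most closely were *CG7453* (r = 0.97), *CG15544* (0.96) and *CG7638* (0.95). For *Act42A* they were *Mob4* (0.93), *CG3259* (0.92) and *MBD-like* (0.92), and for *Act57B* *CG3777* (0.96), *ninaC* (0.95) and *Fbw5* (0.95). *Act87E* was closest to *Fatp* (0.96), *ClC-a* (0.95) and *ETHR* (0.95). *Act79B* was closest to *CG42319* (0.97), *Cpr66Cb* (0.96) and *Unc-89* (0.96), the last of them a sarcomere gene, and *Act88F* to *Phm*, *CG14762* and *CG13748* (0.94 each).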

How the data were processed

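The 12 libraries were stranded mRNA libraries of dissected wings. Reads were aligned by the authors to the dm3 assembly with TopHat2 (2.1.0), and the deposited raw counts per gene came from HTSeq (0.6.1). The deposited RPKM table, which the authors made in edgeR, has 2 columns that match no sample and were not used. Lines for unassigned reads (44.0 to 75.2% of the records) were left out. Counts were analysed with edgeR 4.0.16, DESeq2 1.42.0 and limma 3.58.1 in R 4.3.3. Log2 CPM used TMM and a prior count of 2, and 8469 of 15240 genes had a value above 2 in at least 1 library. One quasi-likelihood model over 12 libraries gave the 5 contrasts and a test of all stages, with Benjamini-Hochberg adjustment over all genes tested. The steps were tested on simulated data. Per-length levels were planned on the lengths implied by counts and RPKM, but exon lengths of BDGP6 were used, a choice made after seeing the data. Since the counts were made on dm3, coordinates of BDGP6 are left out. Alternatives were other scalings, filters, tests and sample sets, log2(RPKM + 0.5) with limma, a replicate term and leaving out each library. Genes named are the 6 actin genes, fixed members of the lists and those with the largest change past the test, and the 3 genes most correlated with each actin gene. *Mlc2*, *capt*, *cib*, *fln*, *sls*, *blow*, *Mef2*, *twi*, *Him* and *Gasp*, where outside that rule, were named after their values were seen. List medians without 44 h replicate 2 and the sarcomere sum without *sls* were added after seeing the data. The members and lists were chosen with earlier results of these data known.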

Additional observations from a re-analysis of the deposited data

How the results depend on the processing

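All 6 actin genes differed among the stages in every fit of that test on the 12 libraries. The ratio of *Act5C* to *Act42A* had an exact permutation p of 0.0001924 with 1 or 0.5 added to each count and with RPKM. These settings could hardly change that p and are no check on it. RPKM shifts every log2 ratio by the same constant, and the added counts are far below the reads of both genes. Of the log2 fold changes of single genes under other settings, 544 kept their direction and call, 32 lost the call, 22 gained it and 10 reversed. The number of actin genes past the test ranged from 1 to 3 at 6 h, 3 to 4 at 18 h, 1 to 3 at 24 h, 2 to 4 at 36 h and 2 to 4 at 44 h APF with each library left out in turn. It was 1 at 6 h without either L3 replicate, 1 at 24 h without 18 h replicate 2 or 24 h replicate 1, and 2 at 36 h without any 1 of the 18 and 24 h libraries. With library sizes over every line of the count files it was 4 at 24 h, and with the deposited RPKM and limma it was 2 at 36 h. Those scalings and library size alone moved the median of all genes by up to −0.88 (log2, at 36 h), and *Act5C* kept its direction under each. With no filter, so that every gene with a count was tested, *Act88F* at 24 and 44 h and *Act79B* at 6 h gained calls, with adjusted p-values of 1.19e-10, 6.64e-13 and 1.54e-09, and the cause was not tested. The number of all genes past the test at 24 h was 746, and 304 to 447 without 24 h replicate 1 or either 18 h replicate. At 36 h it was 2151, and 4067 and 3357 with the scalings over every line and RPKM.

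Signs turned where no change was past the test. *Act87E* at 18 h had 0.40 with library size alone, 0.58 with every line, 0.57 with RPKM, and −0.78 to 0.44 with each library left out (0.29 without 6 h replicate 1 and 0.44 without 18 h replicate 1). *Act79B* at 18 h had −1.68 to 0.60 (0.60 without 6 h replicate 2), *Act57B* at 36 h −0.42 with every line and −0.38 with RPKM, *Act42A* at 44 h −0.10 with library size alone and *Act88F* at 44 h −0.55 to 2.97 (−0.55 without 44 h replicate 2). As a share of per-length levels the muscle genes held 0.426% at L3, 2.81% by 6 h, 1.23% by 18 h, 0.879% by 24 h, 2.72% by 36 h and 3.23% by 44 h APF (5.07% in replicate 2 and 1.38% in replicate 1). Same-numbered replicates deviated together in 2 of 15 pairs of stages (correlation over 0.1, range −0.16 to 0.20), so the numbers gave no consistent pairing. These correlations cannot tell whether same-numbered samples were handled together. With a replicate block the counts of actin genes were 2, 4, 2, 4 and 3, with no call changed. Levels per countable sequence from 50- and 100-base words were not run, because no genome was used here. Depth limits *Act79B* and *Act88F*, which had 7 or fewer reads in some libraries of 24 h or before.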

Other observations

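The lengths behind the deposited RPKM values were compared with the exon lengths of the BDGP6 annotation. In the order of the table, which puts capital before small letters, the implied length lay within 20% of the annotated one for 13.4% of 9817 genes, and the logs of the 2 lengths had a Pearson correlation across genes of −0.02. When the same lengths were matched to the symbols in alphabetical order without regard to case, 91.4% of 9776 genes lay within 20% and the correlation was 0.97. In that order the lengths for *Act79B* and *Act88F* were 1619 and 1595 bases, the annotated values. Those for *Act5C*, *Act57B* and *Act87E* were 2807, 2413 and 1701 bases, beside annotated lengths of 2978, 1724 and 1989 bases, and *Act42A* had no value. RPKM values of different genes are not comparable. For 1 gene the length cancels between libraries, but the library scale of RPKM, over every line of the count files, differs from that of TMM. *Act5C* had 916 and 1368 RPKM beside 5484 and 5556 CPM in the L3 replicates. By the deposited RPKM, *Act88F* is understated relative to the other actin genes, with an implied length of 8794 bases.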
